A study of Mus musculus with 16 samples.

Results

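The 10 serotonin receptor genes described here are Htr1a, Htr1b, Htr1d, Htr2a, Htr2c, Htr3a, Htr4, Htr5a, Htr6 and Htr7, found by their Ensembl identifiers among the 22337 gene rows of the deposited table. Htr4 was chosen by its measured values, since it was picked for lower levels with caffeine, and its values in comparisons that use the saline or caffeine libraries are therefore given as a description, with no test. The other 9 entered as family members. All 10 passed the filter on low counts, which kept 14674 genes for testing. The RNA came from the nucleus accumbens of male C57BL/6 mice exposed for 4 days to saline, arecoline (a muscarinic agonist of the areca nut), caffeine (an adenosine receptor antagonist) or nicotine (an agonist of nicotinic acetylcholine receptors), with 4 libraries in each of the 4 groups. All groups shared strain, sex, tissue and length of exposure, and the sources used here give no dose, route or age. Whether each library stands for 1 animal is likewise unknown, so the spread behind every p-value may be technical.

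Serotonin reaches the accumbens along axons from the raphe nuclei of the brainstem, where its cell bodies lie. The receptors of the Htr1 and Htr5 families couple mainly to Gi/o proteins and lower cyclic AMP, those of the Htr2 family couple to Gq and phospholipase C, and Htr4, Htr6 and Htr7 couple to Gs and raise cyclic AMP. Htr3a encodes a subunit of the only ligand-gated channel in the family. In the striatum, medium spiny neurons carry Htr1b to their axon terminals and express Htr6, while Htr3a marks a class of cortical interneurons and Htr2a is best known from cortical pyramidal neurons.

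The libraries differed in their regional makeup before any receptor was considered. All 11 markers of medium spiny neurons, the main cell type of the accumbens, were above 0 in every library, and so were all 9 markers of cortical excitatory neurons. The summed medium spiny level, in CPM (estimated counts divided by the TMM-scaled library total in M), was 9961.6 in saline replicate 3, 8816.7 in arecoline replicate 3 and 6711.2 in arecoline replicate 2, against 1063.4 to 2567.1 in the other 13 libraries. These 3 libraries are called striatum-rich below. Their summed cortical excitatory level was 188.1, 298.5 and 563.3 CPM in the same order. By group, the medium spiny sum was 2348.3 to 9961.6 CPM with saline and 1063.4 to 8816.7 with arecoline. It was 1190.5 to 2233.8 CPM with caffeine and 1317.4 to 1898.8 with nicotine. The cortical excitatory sum was 188.1 to 940.4 CPM with saline and 298.5 to 777.9 with arecoline. It was 967.3 to 1178.2 CPM with caffeine and 966.0 to 1111.1 with nicotine. In both sums, saline did not overlap caffeine or nicotine. By single marker, 10 of the 11 medium spiny markers had a lower mean with caffeine than with saline, and Bcl11b a higher one. Of the 9 cortical markers, 7 had a higher mean with caffeine, and Tbr1 and Rorb a lower one. At an adjusted p under 0.05, the edgeR test used below called 0 markers of either list in that comparison (4.08% of all genes). Nicotine replicate 2 stood apart for another reason, with a summed level of olfactory sensory neuron markers of 820.8 CPM against 35.18 to 113.4 in the others. Library totals lay between 9.04 and 24.32 M estimated counts, so that 1 CPM rested on 9.04 counts or more before scaling.

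Promoter sequences are shown for 3 receptors whose RNA followed the medium spiny sum (Htr1b, Htr6 and Htr7) and for 1 that ran against it (Htr1a). The sequences are those of RefSeq on GRCm38.p6, from 250 bases before to 50 after the annotated start, written 5′ to 3′ on the gene's strand. They lie at chr9:81633783-81634082 (minus strand) for Htr1b, chr4:139075521-139075820 (minus strand) for the upstream of the starts listed for Htr6, chr19:36057311-36057610 (minus strand) for Htr7 and chr13:105443443-105443742 (plus strand) for Htr1a. Capitals mark matches on either strand. The motifs searched were the CCAAT box, spelled by its name, and the GC box, spelled GGGCGG. The core of the cAMP response element was spelled TGACG, the TATA box was spelled TATAAA, and the E box was searched as CACGTG. On the opposite strand a CCAAT box is printed as ATTGG, and the core element as CGTCA.
Htr1b: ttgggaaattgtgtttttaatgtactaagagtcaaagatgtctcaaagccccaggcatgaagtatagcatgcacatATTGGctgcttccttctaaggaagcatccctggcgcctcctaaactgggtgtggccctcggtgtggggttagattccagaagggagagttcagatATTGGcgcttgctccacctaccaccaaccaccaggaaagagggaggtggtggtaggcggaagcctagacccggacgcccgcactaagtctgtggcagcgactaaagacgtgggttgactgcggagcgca
Htr6: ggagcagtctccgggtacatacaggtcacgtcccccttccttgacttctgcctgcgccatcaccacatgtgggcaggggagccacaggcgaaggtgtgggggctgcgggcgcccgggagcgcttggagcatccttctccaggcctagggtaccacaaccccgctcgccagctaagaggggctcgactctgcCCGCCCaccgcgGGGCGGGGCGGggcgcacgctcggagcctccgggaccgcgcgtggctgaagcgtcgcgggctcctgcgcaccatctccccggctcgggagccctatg
Htr7: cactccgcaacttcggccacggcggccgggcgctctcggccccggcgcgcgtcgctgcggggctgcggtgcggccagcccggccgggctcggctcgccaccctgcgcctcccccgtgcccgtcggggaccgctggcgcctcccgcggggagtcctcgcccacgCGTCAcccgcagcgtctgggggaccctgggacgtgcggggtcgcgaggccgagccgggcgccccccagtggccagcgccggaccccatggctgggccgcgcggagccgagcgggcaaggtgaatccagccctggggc
Htr1a: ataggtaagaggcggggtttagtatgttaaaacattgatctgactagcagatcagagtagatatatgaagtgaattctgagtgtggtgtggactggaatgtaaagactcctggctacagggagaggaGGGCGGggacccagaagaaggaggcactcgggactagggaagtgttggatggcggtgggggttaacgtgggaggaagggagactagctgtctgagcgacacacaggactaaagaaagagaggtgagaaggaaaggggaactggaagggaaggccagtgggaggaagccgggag

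The Htr1b promoter held 2 CCAAT boxes, beginning 174 and 79 bases before the start, and no GC box. Htr6 held 3 GC boxes between 59 and 42 bases before the start, of which the last 2 overlap. Htr7 held 1 core of the cAMP response element, 87 bases before the start, in a window with 46 CG pairs and a GC content of 81.0%, against a median of 7 pairs and 52.7% over all promoters of the table. Htr1a held 1 GC box, 123 bases before the start, with 7 CG pairs. Among all 32851 promoters of 300 bases, 37.4% held a CCAAT box, 35.7% a GC box, 20.8% the core of the cAMP response element, 13.6% a TATA box and 7.2% an E box. The windows of Htr1d, another receptor high in the striatum-rich libraries, held a CCAAT box and a GC box at 1 start and GC boxes alone at the other. The TATA box and the E box had no match in the 10 windows listed for 8 of the receptors, which says only that those letters are not in these windows.

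Htr2c, the Gq-coupled receptor that is also abundant in choroid plexus, was the receptor RNA with the highest level per transcript length in each of the 16 libraries. Its mean over the saline libraries was 34.70 ± 9.99 FPKM (fragments scaled to gene length and library total, SD, n = 4), with a range of 20.79 to 42.32 that did not overlap that of the next gene. It made up between 38.2% and 64.4% of the summed FPKM of the 10 receptors. Next in the saline libraries came Htr2a, the other Gq-coupled member, at 6.79 ± 1.71 FPKM and Htr4 at 6.52 ± 1.92 FPKM. Below them lay Htr1a at 4.06 ± 0.80, Htr1b at 3.92 ± 2.28, Htr3a at 3.48 ± 1.78, Htr6 at 2.85 ± 1.86, Htr5a at 2.26 ± 0.59, Htr7 at 1.89 ± 0.40 and Htr1d at 1.70 ± 1.52 FPKM (SD, n = 4 each). From Htr2a down, each neighbour in this order overlapped the next in its range over the saline libraries, so the order of those 9 is not resolved. In the caffeine libraries the order below Htr2a was clearer, since Htr3a at 7.40 ± 1.18 FPKM lay above Htr1a at 5.39 ± 0.71, which lay above Htr5a at 3.40 ± 0.42, which lay above Htr4 at 1.55 ± 0.55, with no overlap between neighbours (SD, n = 4).

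**Figure D1:**
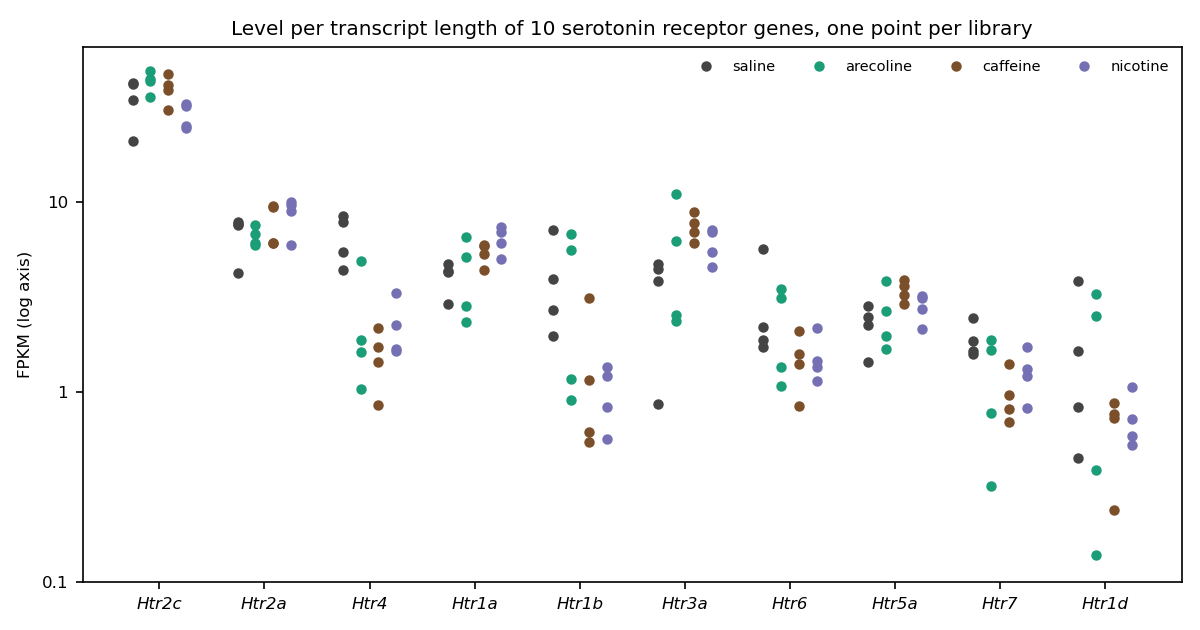
FPKM (log axis) of each receptor gene in each library, with genes ordered by their mean over the saline libraries and points coloured by group. The points of Htr2c lie above those of every other receptor, and the other 9 genes overlap.

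Htr4, a Gs-coupled receptor, had its highest levels in the saline group. It was measured at 8.25, 12.29, 12.83 and 6.57 CPM in saline replicates 1 to 4 and at 1.45, 3.10, 2.73 and 2.49 CPM in the caffeine libraries. The arecoline libraries gave 2.65, 2.71, 9.91 and 1.67 CPM, and the nicotine libraries 3.31, 3.10, 4.70 and 2.76 CPM. All caffeine and all nicotine libraries lay below the lowest saline library, whereas arecoline replicate 3 lay within the saline range. The log2 fold change against saline was -2.04 ± 0.46 with caffeine, -1.24 ± 0.44 with arecoline and -1.52 ± 0.45 with nicotine (edgeR's estimate ± SE, 4 libraries a group). Without arecoline replicate 3 the arecoline value was -2.09. With a score of the medium spiny markers as a covariate, the caffeine value was -1.38 ± 0.41. That score was 0.319 or more in every saline library, at most 0.204 with caffeine and at most -0.080 with nicotine. Fits with the score, here and below, therefore cannot tell tissue makeup from compound for caffeine or nicotine against saline. The 3 log2 fold changes against saline share the saline libraries and describe the choice of the gene. Of all genes tested, 4.08% passed an adjusted p of 0.05 between caffeine and saline in edgeR's quasi-likelihood test with Benjamini-Hochberg adjustment, and nothing is read from that share for Htr4.

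Htr4 was tested between arecoline and nicotine, which do not enter its choice. The log2 fold change was 0.28 ± 0.45 (higher with arecoline; edgeR adjusted p = 0.777), and the ranges overlapped. Without arecoline replicate 3 the sign turned, to -0.57. Htr4 followed the medium spiny sum in part. It was highest, at 12.83 CPM, in saline replicate 3, but at 2.71 CPM in arecoline replicate 2, another striatum-rich library, and at 12.29 CPM in saline replicate 2, whose medium spiny sum was 2378.5 CPM. Htr4 ran with other marker sums about as closely, which describes the libraries and carries no p. Spearman's rho over the 16 libraries was 0.691 with the 7 oligodendrocyte markers, 0.753 with the 4 raphe markers, whose sums did not pass 1.56 CPM, and -0.709 with the 12 interneuron markers. The oligodendrocyte sum was 6749.6 to 7813.8 CPM with saline, 4154.7 to 8887.4 with arecoline, 3190.3 to 5200.4 with caffeine and 3348.8 to 5612.2 with nicotine, with no marker at 0, and edgeR called 5 of the 7 markers lower with caffeine than with saline (4.08% of all genes called). The part of these cells in the Htr4 values was not tested. In bulk RNA, fewer cells of a type and less RNA per cell cannot be told apart, here and for the receptors below.

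**Figure D2:**
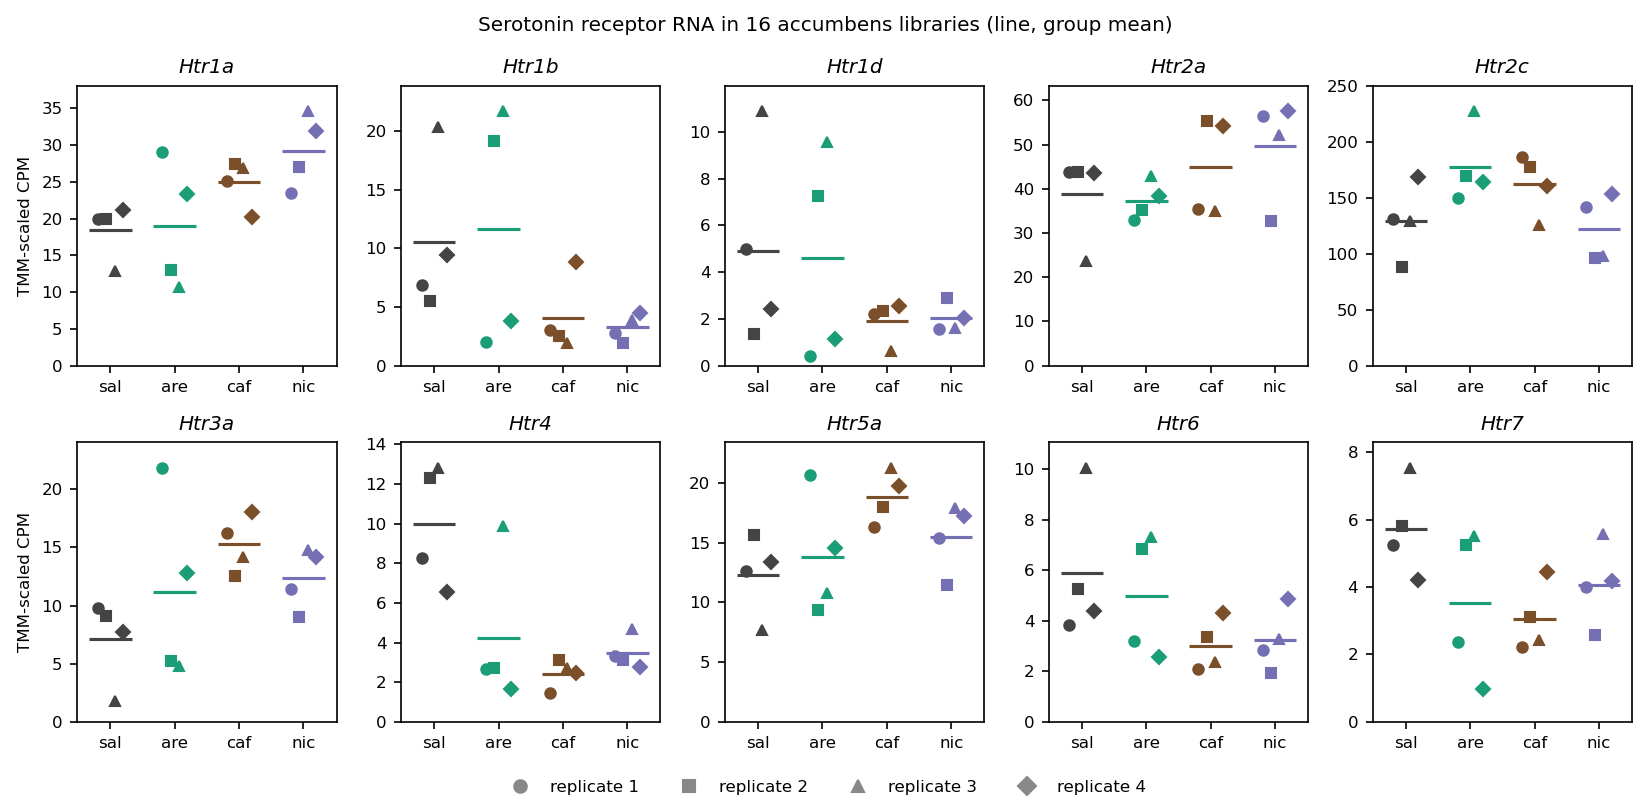
TMM-scaled CPM of the 10 receptor genes in the 4 groups, 1 point per library with a shape for each replicate number and a line at the group mean. Saline replicate 3 and arecoline replicates 2 and 3 are high for Htr1b, Htr1d and Htr6 and low for Htr1a, Htr3a and Htr5a.

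Htr1b, the Gi/o-coupled receptor of striatal axon terminals, spread widely within the saline and arecoline groups. Its level was 6.89, 5.54, 20.37 and 9.41 CPM in the saline libraries and 2.05, 19.17, 21.69 and 3.81 CPM in the arecoline libraries. Caffeine libraries gave 3.05, 2.56, 1.94 and 8.86 CPM, and nicotine libraries 2.79, 1.93, 3.90 and 4.50 CPM. The 3 striatum-rich libraries held the 3 highest values, between 19.17 and 21.69 CPM, against 1.93 to 9.41 in the other 13. The nicotine libraries lay below all saline libraries, and the caffeine libraries overlapped them. The share of all genes whose group ranges do not overlap was not counted. No such separation, here or below, can therefore be read as particular to a gene. The log2 fold change against saline was -1.67 ± 0.68 with nicotine (edgeR adjusted p = 0.343) and -1.36 ± 0.66 with caffeine (adjusted p = 0.214), and neither passed the threshold. With the medium spiny score as a covariate the caffeine value was 0.062 ± 0.27 and the nicotine value -0.45 ± 0.26. On the opposite strand, the antisense gene D430036J16Rik overlaps an exon of Htr1b in GENCODE M21, and reads of both cannot be told apart where the counting did not use strand.

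Htr1d, a related Gi/o-coupled autoreceptor, had the same 3 libraries at the top. It gave 4.98, 1.35, 10.87 and 2.43 CPM with saline, 0.40, 7.24, 9.58 and 1.15 CPM with arecoline, 2.23, 2.33, 0.62 and 2.54 CPM with caffeine, and 1.58, 2.89, 1.61 and 2.02 CPM with nicotine. The caffeine and nicotine groups held no value above 2.89 CPM, and both overlapped the saline range. The lowest value rested on 6 estimated counts. On the log2 scale the difference from saline was -1.36 ± 0.78 with caffeine (edgeR adjusted p = 0.286) and -1.29 ± 0.78 with nicotine (adjusted p = 0.528). Once the medium spiny score was in the model, these values were 0.44 ± 0.52 and 0.16 ± 0.49.

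Htr1a, the somatodendritic Gi/o-coupled receptor, ran the other way. Its level was 19.98, 19.89, 12.90 and 21.18 CPM with saline and 23.43, 26.98, 34.59 and 31.94 CPM with nicotine. It was 25.07, 27.48, 26.95 and 20.20 CPM with caffeine, and 29.12, 13.06, 10.65 and 23.36 CPM with arecoline. Every nicotine library lay above every saline library, and the 3 striatum-rich libraries held the 3 lowest values, from 10.65 to 13.06 CPM against 19.89 to 34.59 CPM in the others. Nicotine differed from saline by a log2 fold change of 0.66 ± 0.26 (edgeR adjusted p = 0.332) and caffeine by 0.43 ± 0.26 (adjusted p = 0.306). Given the medium spiny score as a covariate, they were 0.30 ± 0.15 and -0.083 ± 0.16.

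Htr5a, also of the Gi/o-coupled kind, was measured at 12.61, 15.63, 7.67 and 13.39 CPM with saline and at 16.36, 18.01, 21.29 and 19.79 CPM with caffeine. Arecoline libraries gave 20.65, 9.33, 10.78 and 14.58 CPM, and nicotine libraries 15.37, 11.46, 17.88 and 17.28 CPM. The caffeine and saline ranges did not overlap, and the striatum-rich libraries were the 3 lowest of the 16. In the model, the log2 fold change was 0.62 ± 0.24 with caffeine (edgeR adjusted p = 0.134) and 0.34 ± 0.24 with nicotine (adjusted p = 0.606). Without the striatum-rich libraries and nicotine replicate 2, the caffeine value was 0.44 ± 0.15 (adjusted p = 0.0756).

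Htr2c RNA was 131.2, 88.37, 129.1 and 168.4 CPM with saline, 149.7, 169.7, 227.5 and 164.6 CPM with arecoline, 186.8, 177.8, 125.9 and 161.0 CPM with caffeine, and 142.0, 96.03, 98.27 and 154.0 CPM with nicotine. All groups overlapped, and the highest value belonged to arecoline replicate 3. Against saline, the log2 fold change was 0.46 ± 0.20 with arecoline (edgeR adjusted p = 0.283) and 0.33 ± 0.20 with caffeine (adjusted p = 0.311). Choroid plexus, where Htr2c is abundant, was unevenly present. The summed level of 8 choroid plexus markers was 14.49 to 79.18 CPM with saline, 5.43 to 261.5 with arecoline, 7.98 to 63.95 with caffeine and 13.72 to 91.32 with nicotine. Arecoline replicate 3 held the highest sum, and the markers Folr1 and Kcne2 were at 0 in some libraries. Nicotine replicate 2, with a sum of 91.32 CPM, had Htr2c at 96.03 CPM. Spearman's rho of Htr2c with the sum was 0.218 over the 16 libraries and 0.000 without the 3 striatum-rich ones (n = 13). These values describe the libraries and carry no p. The part of choroid plexus in the Htr2c values was not tested.

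Htr2a was 43.84, 43.76, 23.56 and 43.65 CPM with saline, 32.89, 35.12, 42.78 and 38.46 with arecoline, 35.52, 55.34, 34.89 and 54.13 with caffeine, and 56.50, 32.76, 52.16 and 57.48 with nicotine. The groups overlapped, and saline replicate 3, the library with the lowest cortical excitatory sum, was the lowest of the 16. Against saline, it was on the log2 scale 0.37 ± 0.22 with nicotine (edgeR adjusted p = 0.524) and 0.22 ± 0.22 with caffeine (adjusted p = 0.559).

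Htr3a, the channel subunit, lay lower in every saline library than in any caffeine library. It was measured at 9.82, 9.09, 1.77 and 7.71 CPM with saline, 16.26, 12.57, 14.14 and 18.02 CPM with caffeine, 21.84, 5.20, 4.79 and 12.75 CPM with arecoline, and 11.38, 8.99, 14.73 and 14.19 CPM with nicotine. The 3 striatum-rich libraries were the lowest of the 16, at 1.77 to 5.20 CPM against 7.71 to 21.84 CPM in the others. Over all 16 libraries the log2 fold change was 1.11 ± 0.47 with caffeine (edgeR adjusted p = 0.157), 0.65 ± 0.47 with arecoline (adjusted p = 0.525) and 0.80 ± 0.47 with nicotine (adjusted p = 0.509), none past the threshold. In the 12 libraries left without the striatum-rich ones and nicotine replicate 2, Htr3a was called higher with caffeine at 0.78 ± 0.20 (edgeR adjusted p = 0.0227) and with arecoline at 0.96 ± 0.23 (adjusted p = 0.0247). In that fit the arecoline group held only 2 libraries, and 10.0% and 6.39% of all genes were called in the 2 comparisons. The saline libraries left had higher medium spiny sums (2348.3 to 2567.1 CPM) than the arecoline (1063.4 and 1077.0) or caffeine libraries (1190.5 to 2233.8). The part of that difference in these calls was not tested. With the medium spiny score as a covariate on all 16 libraries, the caffeine value was 0.46 ± 0.34 (adjusted p = 0.494). Some interneuron markers were also higher with caffeine in the mean. The summed level of 12 interneuron markers other than cholinergic ones was 484.2 to 1648.2 CPM with saline, 866.2 to 2085.2 with arecoline, 1953.2 to 2238.5 with caffeine and 1220.4 to 2119.6 with nicotine, with none of the 12 at 0 in any library. Most of that sum came from Cck, Sst and Npy. Against saline, 10 of the 12 had a higher mean with caffeine, Reln (27.97 and 22.79 CPM) and Adarb2 (38.34 and 34.89 CPM) a lower one, and 0 were called by edgeR (4.08% of all genes). Lhx6 (12.28 and 12.46 CPM) and Prox1 (10.33 and 11.07 CPM) hardly differed. The part of these cells in the Htr3a values was not tested.

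Htr6, a Gs-coupled receptor of striatal neurons, was 3.82, 5.26, 10.05 and 4.38 CPM with saline, 3.18, 6.84, 7.32 and 2.56 with arecoline, 2.08, 3.34, 2.36 and 4.30 with caffeine, and 2.86, 1.93, 3.28 and 4.84 with nicotine. The striatum-rich libraries were the 3 highest, from 6.84 to 10.05 CPM against 1.93 to 5.26 CPM. Caffeine and nicotine were lower than saline in the mean: the log2 fold change was -0.97 ± 0.41 with caffeine (edgeR adjusted p = 0.157) and -0.85 ± 0.41 with nicotine (adjusted p = 0.418), and the ranges overlapped that of saline. Fitted with the medium spiny score, these values were -0.16 ± 0.28 and -0.22 ± 0.27.

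Htr7, the remaining Gs-coupled member, was 5.25, 5.82, 7.54 and 4.22 CPM with saline, 2.38, 5.26, 5.52 and 0.99 with arecoline, 2.23, 3.10, 2.44 and 4.45 with caffeine, and 3.99, 2.57, 5.57 and 4.17 with nicotine. Its group ranges overlapped, and the lowest level was in arecoline replicate 4, which also held one of the 2 lowest medium spiny sums, 1077.0 CPM. The log2 fold change was -0.90 ± 0.42 with caffeine (edgeR adjusted p = 0.198), -0.69 ± 0.42 with arecoline (adjusted p = 0.442) and -0.48 ± 0.42 with nicotine (adjusted p = 0.682). In the 12-library fit the arecoline value was -1.61 ± 0.41 and passed the threshold (edgeR adjusted p = 0.034), with 2 arecoline libraries. Those 2 held the lowest medium spiny sums of the 16, 1063.4 and 1077.0 CPM, against 2348.3 to 2567.1 in the saline libraries left. The part of that difference in the call was not tested. With the medium spiny score in the 16-library fit the arecoline value was -0.63 ± 0.28 (adjusted p = 0.249).

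**Figure D3:**
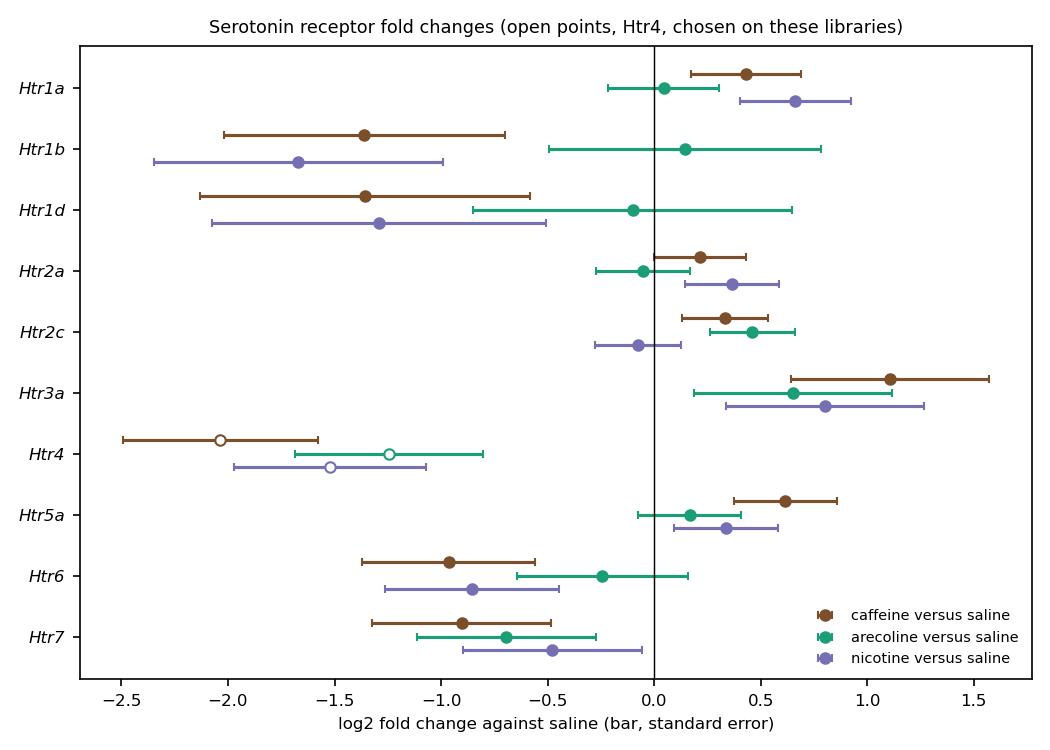
Log2 fold change of each receptor gene against saline for the 3 compounds, with bars of 1 standard error from the edgeR fit; the comparisons share the saline libraries. Htr1b, Htr1d, Htr6 and Htr7 lie below 0 with caffeine and nicotine, Htr3a and Htr5a lie above 0 with each compound, and none of the 9 tested genes passed the threshold.

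Counted over the family, edgeR called 0 of the 9 receptors other than Htr4 between caffeine and saline, where 4.08% of all genes were called. At an unadjusted p under 0.05 it held 4 of 9 (Htr3a and Htr5a higher, Htr6 and Htr7 lower), against 24.6% of all genes, and DESeq2 called 0 against 10.0%. Their median log2 fold change with caffeine was 0.22, with 5 above 0 and 4 below, beside a median of -0.02 over all genes tested. Between arecoline and saline edgeR called 0 of 9 (0.0136% of all genes), 1 of 9 at the unadjusted level (Htr2c, higher; 15.7%), and DESeq2 called 0 (3.04%). The median there was 0.04 beside 0.00 over all genes, and the values ran from -0.69 for Htr7 to 0.65 for Htr3a. Between nicotine and saline edgeR called 0 of 9 (0%), 2 of 9 at the unadjusted level (Htr1a higher, Htr1b lower; 12.2%), and DESeq2 called 0 (0.623%). The median there was -0.08 beside 0.02 over all genes.

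Comparisons between compounds gave no receptor call either. Between arecoline and nicotine, 0 of the 10 receptors were called by edgeR (0.0886% of all genes) or by DESeq2 (4.09%), and 3 were under an unadjusted p of 0.05 (18.2%): Htr1b and Htr2c higher with arecoline and Htr1a lower. Htr1b stood at 1.81 ± 0.68 on the log2 scale (edgeR adjusted p = 0.182), with the arecoline group split between the 2 striatum-rich libraries and the other two. Between caffeine and arecoline the counts of the 9 were 0 by edgeR (0%), 0 by DESeq2 (2.32%) and 1 unadjusted (Htr1b, lower with caffeine; 15.8%). Between caffeine and nicotine they were 0 by edgeR (0%), 0 by DESeq2 (0.0342%) and 0 unadjusted (9.30%). In the test for any difference among the 4 groups they were 0 by edgeR (1.14%), 0 by DESeq2 (11.2%) and 2 unadjusted (Htr1b and Htr2c; 23.4%). In the 12-library fit, 1 of the 9 was called in that test (Htr3a, adjusted p = 0.0447), where 8.02% of all genes were.

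**Figure D4:**
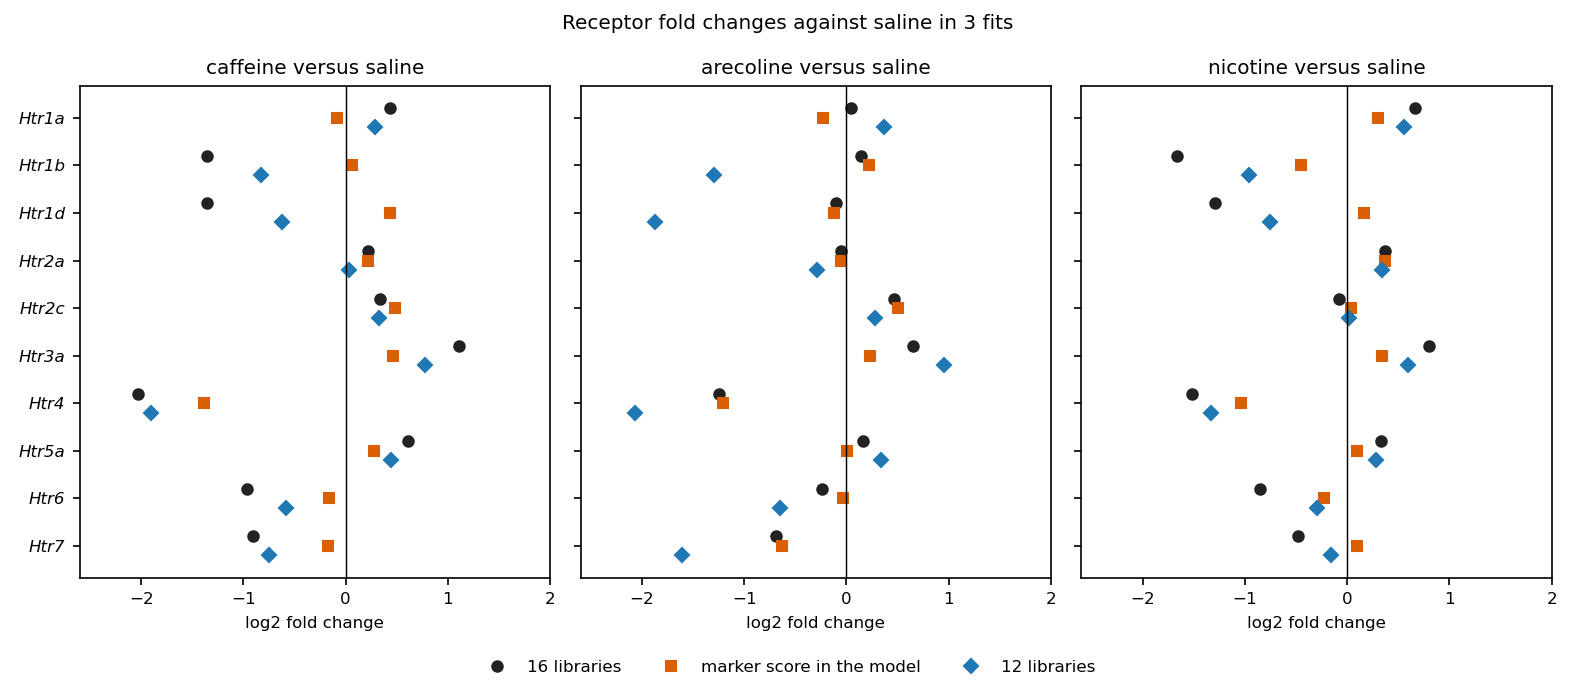
Log2 fold change of each receptor gene against saline in the fit of 16 libraries, in that fit with the medium spiny marker score as a covariate, and in the fit of 12 libraries without the striatum-rich ones and nicotine replicate 2. With caffeine, the values of Htr1b and Htr1d move from -1.36 in the fit of 16 libraries to 0.062 and 0.44 with the score. The score was higher in every saline library than in any caffeine or nicotine library.

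The receptors fell into sets by how they followed the medium spiny sum over the libraries. Spearman's rho with that sum over the 16 libraries was 0.897 for Htr1b, 0.868 for Htr7, 0.850 for Htr6, 0.762 for Htr1d and 0.668 for Htr4. It was -0.735 for Htr1a, -0.718 for Htr3a and -0.682 for Htr5a, and near 0 for Htr2c at 0.056 and Htr2a at 0.029. Without the 3 striatum-rich libraries (n = 13) it was 0.813 for Htr1b, 0.852 for Htr7, 0.720 for Htr6, 0.687 for Htr4 and 0.555 for Htr1d, and -0.511 for Htr1a, -0.473 for Htr3a and -0.412 for Htr5a. The signs for these 8 genes were thus the same with and without the 3 libraries. The points share library, depth and group, so these values describe the libraries and carry no p.

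**Figure D5:**
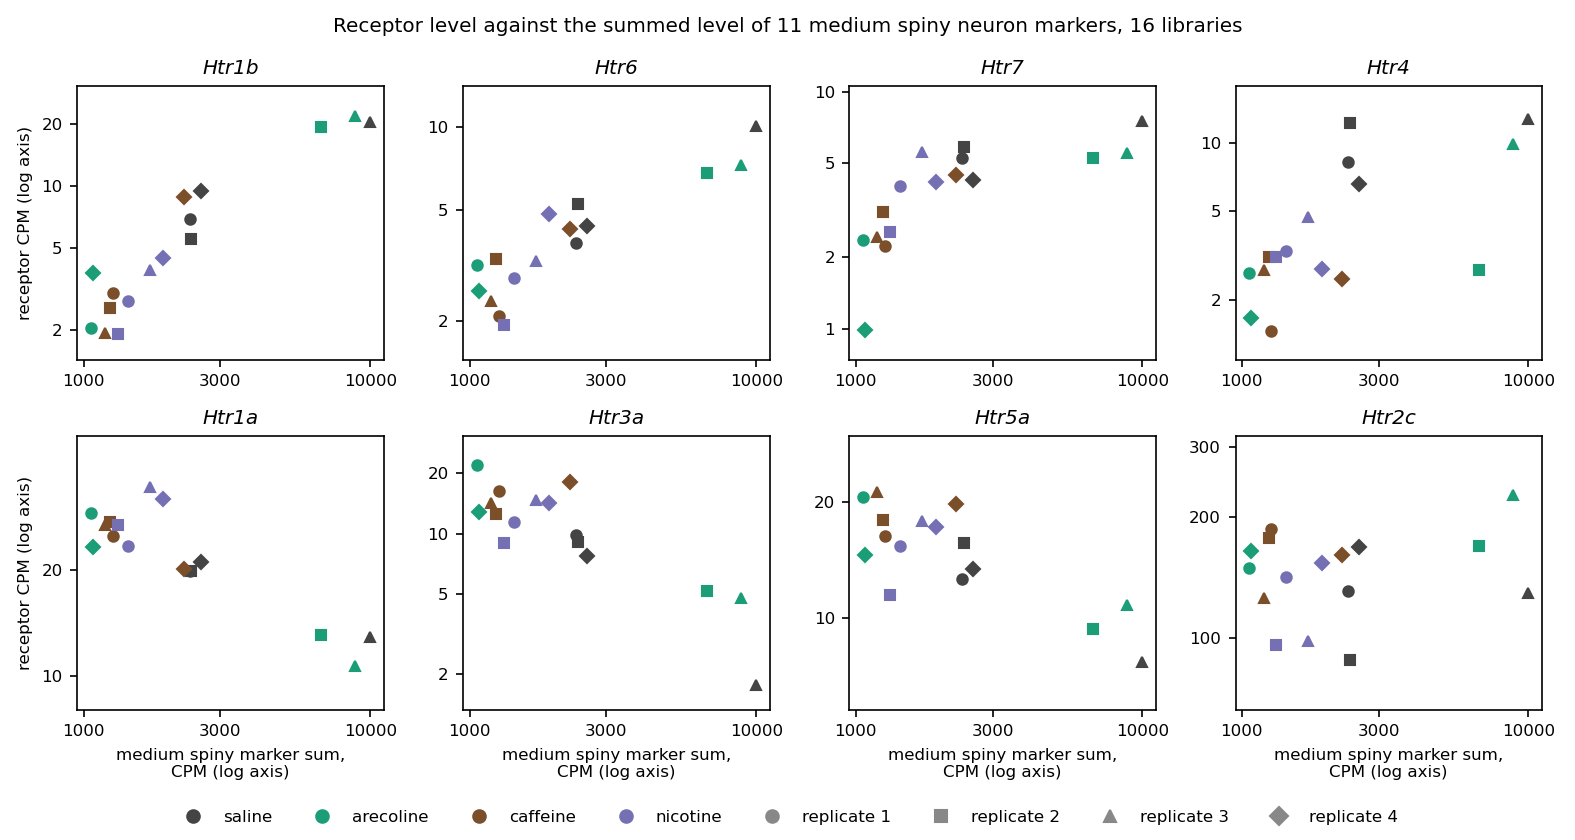
CPM of 8 receptors (log axis) against the summed CPM of 11 medium spiny neuron markers (log axis) in the 16 libraries, coloured by group with a shape for each replicate number. Htr1b, Htr6 and Htr7 are higher and Htr1a, Htr3a and Htr5a lower toward the 3 libraries at the right, while Htr2c spreads without order.

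The genes whose levels ran most like each receptor were ranked by Spearman's rho of log2 CPM over the 16 libraries among the genes tested. For Htr1b they were Phactr1 (rho 0.959), Rgs9 (0.950), a regulator of G-protein signalling that is itself among the medium spiny markers, and Spock3 (0.944). Rgs9 was measured at 601.5 CPM in saline replicate 3 and at 35.14 CPM in arecoline replicate 1, where Htr1b had 20.37 and 2.05 CPM. For Htr6 they were Actn2 (0.953), Gprin3 (0.944) and Gad2 (0.929), the last a GABA-synthesizing enzyme. For Htr7 they were Gfra1, Lingo3 (both 0.932) and Chat (0.929), the acetylcholine-synthesizing enzyme, which ran from 0.05 CPM in caffeine replicate 1 to 24.31 CPM in saline replicate 3. Without the 3 striatum-rich libraries the rho of Chat with Htr7 was 0.934 (n = 13).

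For Htr4 the 5 nearest genes were Rcbtb1 (rho 0.897), Tmem176a (0.894), Tdrd7 (0.879), E330009J07Rik (0.865) and Cpt1a (0.850), the last the enzyme that commits fatty acids to mitochondrial oxidation. None of these is among the medium spiny markers. Since they were picked for running like Htr4, their levels in the saline and caffeine libraries follow from that choice. For Htr3a they were Rab33a (0.912), Tyw5 (0.906) and Rergl (0.893), and for Htr1a Slc7a8 (0.891), Ccdc80 (0.891) and Sprn (0.888). Htr5a was nearest to Gramd1b (0.926), and Htr1d to Clip4 (0.929). Htr2c was nearest to Bex1 (0.891), Npm1 (0.888) and Rpl6 (0.876), and Htr2a to Snap25 (0.847), a synaptic vesicle fusion protein. Libraries of the same makeup and depth enter each of these values, which are descriptions over 16 points.

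Of the 4 receptor genes outside the 10, Htr1f, which is Gi/o-coupled, had a mean of 2.99 ± 0.42 FPKM with saline (SD, n = 4), within the span of the members' means. It ran from 3.92 to 12.74 CPM, Htr5b from 1.13 to 5.12 CPM and Htr2b from 0.12 to 2.41 CPM. Htr2b overlaps an exon of Psmd1 on the opposite strand. Htr3b, the partner subunit of Htr3a, had 2 estimated counts in saline replicate 3, 8 in arecoline replicate 2 and 0 in the other 14 libraries, and was not tested. Of the 3 tested, edgeR called 0 in each of the 6 comparisons, and 1 was under an unadjusted p of 0.05 (Htr1f, lower with caffeine than with nicotine at -0.52 ± 0.24, adjusted p = 0.532); DESeq2 called 0.

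The cell bodies that make serotonin were close to absent from the tissue. The transporter Slc6a4 ran from 0 to 0.75 CPM and was at 0 in 13 libraries, and the raphe transcription factor Fev ran from 0 to 0.28 CPM. Tph2, the neuronal enzyme that starts serotonin synthesis, ran from 0.08 to 1.42 CPM. The sum of the 4 raphe markers was 1.22 to 1.56 CPM with saline, 0.26 to 0.93 with arecoline, 0.83 to 0.88 with caffeine and 0.34 to 1.18 with nicotine.

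Of the 13 tested genes of serotonin synthesis, transport and breakdown, out of 17 listed, edgeR called 0 in each comparison, against 4.08% of all genes for caffeine. At an unadjusted p under 0.05, 6 differed between caffeine and saline (24.6% of all genes), and DESeq2 called 3 (Maoa, Qdpr and Slc22a3), all lower with caffeine, against 10.0% of all genes. In the other 5 comparisons 2 to 4 of the 13 were under that level, where 9.30% to 18.2% of all genes were. DESeq2 called Slc29a4, a monoamine carrier, lower with arecoline than with saline (-0.98; 3.04% of all genes called) and than with nicotine (-1.18; 4.09%). The list's median log2 fold change with caffeine was -0.44, beside -0.02 over all genes. Maoa, the oxidase that breaks down serotonin, was 46.36, 43.69, 38.77 and 40.57 CPM with saline and 32.52, 31.12, 36.54 and 35.69 CPM with caffeine. These ranges did not overlap, and the log2 fold change was -0.32 ± 0.09 (edgeR adjusted p = 0.0555). Slc22a3, a low-affinity monoamine carrier, was 4.09, 5.90, 6.25 and 3.16 CPM with saline and between 1.14 and 2.32 CPM in the 4 caffeine libraries, with no overlap and a log2 fold change of -1.63 ± 0.51 (adjusted p = 0.0742). Maob, the other oxidase, differed by -0.24 ± 0.11 (adjusted p = 0.18). Under some alternatives edgeR did call genes of this list. In the 12-library fit, Slc22a3 (-1.487, edgeR adjusted p = 0.0157), Maoa (-0.361, adjusted p = 0.0433), Qdpr and Aldh2 were called lower with caffeine (10.0% of all genes). That fit also called Slc22a3 lower with nicotine than with saline (-1.984, adjusted p = 0.0489), where 48 of 14897 genes were called. With the replicate number as a block, Slc22a3 was called lower with caffeine (-1.601, edgeR adjusted p = 0.0429).

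Among the proteins that receptors act through, 3 of 35 tested genes passed the threshold with caffeine, where 4.08% of all genes did. Gnaz, a Gi-family alpha subunit, was 1 of 9 tested alpha subunits called and was 48.75, 50.93, 52.76 and 48.28 CPM with saline and 87.17, 80.26, 76.40 and 77.18 CPM with caffeine. The ranges were far apart, and the log2 fold change was 0.68 ± 0.12 (edgeR adjusted p = 0.0118, higher in 4 of 4 libraries); without caffeine replicate 1 it was 0.64 (adjusted p = 0.0524). Arecoline libraries gave 45.04 to 65.58 CPM and nicotine libraries 62.85 to 79.21 CPM.

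Kcnj9, a subunit of the potassium channels that Gi/o-coupled receptors open, was 1 of 15 tested effector genes called. It rose from 68.24, 78.64, 47.53 and 70.59 CPM with saline to 122.7, 123.1, 114.5 and 127.6 CPM with caffeine, at a log2 fold change of 0.88 ± 0.19 (edgeR adjusted p = 0.0244). Nicotine libraries also lay above all saline libraries, at 86.83 to 136.1 CPM, and arecoline libraries gave 59.28 to 112.3 CPM. In the fit of 16 libraries edgeR made no call for either against saline. The 12-library fit called Kcnj9 higher with nicotine (0.655, edgeR adjusted p = 0.0358), where 48 of 14897 genes were called. It also called Kcnj9 higher with arecoline (0.52, adjusted p = 0.0312, 6.39% of all genes), with 2 arecoline libraries. The caffeine call was lost with the medium spiny score as a covariate, at 0.60. It was also lost without saline replicate 2, caffeine replicate 1 or caffeine replicate 2, where the caffeine value was 0.98, 0.89 and 0.88. Like Htr3a and Htr5a, Kcnj9 was lowest in the striatum-rich saline replicate 3.

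Adarb1, an adenosine deaminase that edits RNA including that of Htr2c, was 1 of 11 tested partner genes called. It fell from 102.7, 123.7, 97.79 and 68.48 CPM with saline to 54.50, 58.52, 59.03 and 61.07 CPM with caffeine, at -0.75 ± 0.17 (edgeR adjusted p = 0.0291). Arecoline libraries gave 42.95 to 72.73 CPM and nicotine libraries 66.07 to 92.29 CPM. In the fit of all libraries without covariate or block, edgeR made no call for arecoline against saline. DESeq2 did (-0.83, adjusted p = 0.00179, 3.04% of all genes called). So did edgeR with the replicate number as a block (-0.836, adjusted p = 0.0339, 98 of 14674 genes). The 12-library fit, with 2 arecoline libraries, also called Adarb1 lower (-1.075, edgeR adjusted p = 0.00736, 6.39% of all genes). EdgeR called it too without saline replicate 4 (-0.968, adjusted p = 0.0351, 67 of 14858 genes) or arecoline replicate 2 (-0.981, adjusted p = 0.0249, 198 of 14850 genes). With the medium spiny score as a covariate the caffeine value was -0.60 and not called. The arecoline value was then -0.80 and called (edgeR adjusted p = 0.0481, as were 49 of 14674 genes). The caffeine call was also lost without saline replicate 2 (-0.62) or caffeine replicates 1, 2 or 3 (-0.71, -0.75 and -0.75). S100a10, which binds Htr1b and Htr4, ran from 14.26 to 29.52 CPM with saline and from 25.33 to 35.97 CPM with caffeine (0.55 ± 0.35, edgeR adjusted p = 0.339). It ran from 11.84 to 46.25 CPM with arecoline and from 20.36 to 38.86 CPM with nicotine. The 12-library fit, with 2 arecoline libraries, called S100a10 higher with arecoline than with saline (1.049, edgeR adjusted p = 0.0129, 6.39% of all genes). In that fit it was also called higher with arecoline than with nicotine (0.974, adjusted p = 0.0305), as were or were lower 282 of 14897 genes in all. Oligodendrocyte markers were also lower with caffeine than with saline. Their sum of 7 markers was 6749.6 to 7813.8 CPM with saline and 3190.3 to 5200.4 CPM with caffeine, with none at 0. The part of these markers in these results was not tested.

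Adcy9, an adenylyl cyclase, was the only gene of these lists called between compounds in the edgeR fit of 16 libraries without covariate or block. That fit called 0.0886% of all genes between arecoline and nicotine. Adcy9 was 24.48, 34.39, 28.34 and 30.88 CPM with arecoline and 48.29, 64.34, 64.23 and 51.30 CPM with nicotine, with no overlap. The log2 fold change was -0.95 ± 0.15 (edgeR adjusted p = 0.0268, lower in 4 of 4 arecoline libraries). Saline libraries, at 30.00 to 42.91 CPM, overlapped the arecoline range and lay below the nicotine range. In a fit of those 2 groups alone the value was the same and the adjusted p was 0.0855. Calls were also lost with limma on log2(FPKM + 0.1), at -0.92, and without arecoline replicates 1 or 3, caffeine replicate 2 or nicotine replicates 2 or 3, at -0.87 to -0.93. DESeq2 called Adcy9, Slc29a4, Gnai1, Adcy1 and Arrb2 between arecoline and nicotine (4.09% of all genes). Between caffeine and arecoline it called Gnaz, Adcy1 and Adcy9 (2.32%). Against saline, DESeq2 called Gnaz (0.48, adjusted p = 0.0319) and Adcy9 (0.635, adjusted p = 0.017) higher with nicotine (0.623%).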

How the data were processed

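Per the labels' protocols, cDNA was primed with oligo-dT, extended by template switching and amplified by PCR. RSEM, HISAT2, StringTie 1.3.1, Bowtie2 2.2.8, fastp 0.18.0 and the mm10 build are listed, without role or order, per the submitters' processing notes. Per the file headers, the deposited table gives each library an estimated count and an FPKM value, both made by the authors; the counts are not scaled for depth. The sources used here do not say whether strand was used.

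Estimated counts were rounded and tested with edgeR 4.0.16 (quasi-likelihood, TMM scaling, a mean per group, all 16 libraries) in R 4.3.3, with Benjamini-Hochberg adjustment over the 14674 genes kept by filterByExpr and a threshold of 0.05. The steps were tested on simulated data. CPM are TMM-scaled, SEs come from the fit, and FPKM serve comparisons between genes. DESeq2 1.42.0 and limma 3.58.1 on log2(FPKM + 0.1) or log2(FPKM + 1) were alternatives. The 12-library fit leaves out saline replicate 3, arecoline replicates 2 and 3 and nicotine replicate 2. The named genes were all 10 receptors, 7 genes of serotonin handling and partners whatever their test, called genes of each list, and the nearest genes by rho. Members and lists were chosen with earlier results of these data known. No 2 libraries of a group agreed within sampling noise (lowest chi-square per degree of freedom 11.5). Genes carry GENCODE M21 symbols, and promoters are from RefSeq, with an entry for 8 of the 10 receptors used.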

Additional observations from a re-analysis of the deposited data

Results flagged for a closer look

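Within 5 of the 40 groups of 4 libraries (10 receptors in 4 groups), 1 library lay far from the other 3 by the gap between it and its neighbour relative to the group's range; chance flags about 1 group in 20. In the saline group, replicate 3 was low for Htr1a at 12.90 CPM against 19.89 to 21.18 in the others, and low for Htr2a at 23.56 CPM against 43.65 to 43.84. This is the library with the highest medium spiny sum. In the arecoline group, replicate 3 was high for Htr4 at 9.91 CPM against 1.67 to 2.71. In the caffeine group, replicate 4 was high for Htr1b at 8.86 CPM against 1.94 to 3.05, in the caffeine library with the highest medium spiny sum (2233.8 CPM), and replicate 3 was low for Htr1d at 0.62 CPM against 2.23 to 2.54. The part of tissue makeup in these values was not tested.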

How the results depend on the processing

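With Htr4 left out wherever saline or caffeine libraries enter, counts of called receptors were 0 in every comparison and under every alternative except the 12-library fit, which called 1 for caffeine against saline, 2 for arecoline against saline and 1 for any difference. The count of called genes in the signalling and metabolism lists, 4 in all, was 12 with DESeq2, 7 with the replicate number as a block (replicate block), 14 in the 12-library fit and 1 to 7 when single libraries were left out. Over all genes, calls between caffeine and saline moved in the same settings from 599 to 1467, 997, 1491 and, with single libraries left out, 23 to 995. The correlation of deviations from group means ran from -0.28 to 0.49 over 24 same-numbered pairs, of which 8 were over 0.1. Over 72 pairs with different numbers it ran from -0.50 to 0.37, and 17 were over 0.1. The medians were 0.022 and -0.005. Whether the numbers pair libraries is not settled by these values. Htr4 with caffeine was -1.55 with limma on log2(FPKM + 1), -1.38 with the medium spiny score as a covariate and -2.19 to -1.84 when single libraries were left out. Htr4 between arecoline and nicotine turned from 0.28 to -0.087, -0.030 and -0.087 with limma (offsets 0.1 and 1, and 0.1 with no filter), -0.17 with the score, -0.74 in the 12-library fit and ranged from -0.57 to 0.55 when single libraries were left out. With the score as a covariate, signs also turned for Htr1a (-0.083), Htr1b (0.062) and Htr1d (0.44) with caffeine and for Htr1d (0.16) and Htr7 (0.091) with nicotine; the cause was not tested. Receptor values changed sign under some alternative for 6 of 9 genes between arecoline and saline, 6 between arecoline and nicotine and 7 between caffeine and arecoline. They did so for 3 of 9 in each comparison of caffeine with saline, nicotine with saline and caffeine with nicotine.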
